A study of Mus musculus with 4 samples.

Results

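The nuclear genes for the respiratory chain of the mouse lens were taken from a table of 56748 genes by name, as protein-coding genes whose symbols begin with the family names of the subunits of complexes I to V. The rule found 95 genes, out of 21970 protein-coding genes: 38 for complex I, 4 for complex II, 8 for complex III, 19 for complex IV and 18 for complex V, the ATP synthase. The other 8 are complex I assembly factors (Ndufaf genes), which match the name rule but encode no subunit, so that 87 genes remain when they are left out. The rule does not reach Cox4i1, Cox4i2, Cyc1, Cycs and Dmac2l, which were followed separately. It does take up Cox5b-ps, which the table lists as protein-coding although its symbol marks a pseudogene. No member lies on the mitochondrial genome, 3 lie on the X chromosome, and the members are spread over 19 chromosomes.

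RNA came from whole lenses of 10 to 12 day old mice that had been flash frozen after dissection. The 2 mutant libraries carried Fsp1-cre;Pdgfrb+/D849V, in which Cre driven by the Fsp1 (S100a4) promoter is meant to switch on an activated PDGF receptor beta from its own locus. The earliest Cre reporter activity that the study describes in lens epithelium is at an older age than these mice. It assumes that the mutant receptor is expressed once Cre is induced. The 2 control libraries are labelled Fsp1-cre;Pdgfrb+/+, so by label both groups carried the Cre transgene, whereas the study's methods describe control pools that also held Cre-negative mice and mice with the D849V allele but no Cre. Lenses of several mice, on the FVB/N background, were pooled for each library, and neither allele is specific to the lens. The comparison asks whether lens genes had already moved in young mutants, at an age before cataract is seen in this model. Because the lenses were sequenced whole, fewer cells of a type and less RNA per cell cannot be told apart. The p-values measure the spread between these pools.

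Complexes I to IV pass electrons from NADH and succinate to oxygen, complexes I, III and IV pump protons across the inner mitochondrial membrane as they do so, and complex V lets the protons back to make ATP. Most subunits are encoded in the nucleus, and a small core of complexes I, III, IV and V comes from the mitochondrial genome. Lens mitochondria are found in the epithelium and in young outer fibres, since maturing fibres break down their organelles, and much of the lens lives on glycolysis.

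Each library held between 18561682 and 18878768 reads, recovered as whole numbers from the deposited FPKM (fragments per kilobase of gene length, scaled to library size). Crystallins, the structural proteins of the fibres, took between 58.6% and 62.9% of them. The members took 0.522% and 0.518% of the reads in mutant replicates 1 and 2, and 0.521% and 0.486% in control replicates 1 and 2. The summed FPKM of 11 fibre markers lay between 139382 and 167546, with Lim2 listed at 0, and that of 6 epithelial markers between 137 and 165, which matches the labelled tissue. Markers of other tissues were low: 8 retinal genes summed to between 0.866 and 3.29 FPKM and 5 red cell genes to between 17.2 and 34.9, with Hba-a2 listed at 0. The 6 markers of striated muscle, a tissue rich in respiratory chain, summed to between 0.109 and 0.285 FPKM, with Acta1, Myh1 and Myh4 listed at 0. In 3 lists the sums separated the genotypes. The sum of the 6 macrophage genes was higher in mutant lenses, at 1.53 and 1.18 FPKM against 0.616 and 0.382 in controls. It rested mostly on C1qa and C1qb, and Ptprc overlapped. The sum of the 6 endothelial and pericyte genes was lower, at 6.08 and 4.76 FPKM against 7.76 and 7.22. Rgs5 was its largest part (3.43 and 2.47 against 4.60 and 4.30 FPKM) and alone did not overlap, while Kcnj8 leaned the other way (log2 fold change 0.36). The sum of the 6 genes of pigmented tissue (Rpe65 listed at 0) was also lower, at 0.634 and 0.709 FPKM against 0.845 and 1.34, where only Pmel was separated. None of these genes had an adjusted p under 0.05 with limma, and their part in the members' values was not tested. Xist, from the inactive X chromosome, stood at 7.62 and 13.1 FPKM in mutant replicates 1 and 2 and at 15.6 and 5.56 in control replicates 1 and 2, so the pools differed in sex composition across both groups.

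The lens expressed nearly the whole set, at levels well above those of most genes. Of the 95 members, 91 reached a mean of 0.1 FPKM over the 4 libraries and were tested. The 4 that did not were Cox8b, with 2 reads in mutant replicate 2 and none elsewhere, and Cox8c, Ndufb11b and a copy of Atp5o (ENSMUSG00000116933), all with no read in any library. With 0 reads, up to 3 reads per library would go unseen by counting error alone. Of the tested members, 71 (78.0%) had a mean of at least 10 FPKM, against 10.4% of the 15997 genes tested, and their median was 23.4 FPKM against 1.59 for all protein-coding genes tested. They were also short, with a median length of 1587 bases against 4439.

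Within complex I the accessory subunits gave the highest levels. Ndufa1, a small membrane-arm subunit encoded on the X chromosome, was the most abundant member, at 420.0 and 354 FPKM in mutant lenses, against 450.3 and 350.1 FPKM in controls. Ndufa2 followed at 97.6 to 101 FPKM in mutant lenses, against 85.4 to 101 FPKM in controls. Core subunits of the arm that takes electrons from NADH were much lower. Ndufv2 had a mean of 23.4 FPKM over the 4 libraries, Ndufs3 of 20.8, Ndufs7 of 19.3 and Ndufs8 of 17.9 FPKM, and the ranges of neighbours in this order overlapped. Ndufv1, which binds NADH, lay between 6.85 and 7.62 FPKM. Ndufs1, the largest core subunit, lay between 2.01 and 2.19 FPKM, and Ndufb2 was lowest at 0.959 to 1.34 FPKM.

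The catalytic and membrane-anchor genes of complex II were unequal. Sdhb, the iron-sulphur subunit, had 45.2 and 40.6 FPKM in mutant lenses, against 37.8 and 40.2 FPKM in controls. Sdha, the flavoprotein that oxidises succinate, had between 9.80 and 11.2 FPKM, and the anchor Sdhc between 3.30 and 3.96 FPKM, while the other anchor Sdhd lay above Sdha at 11.3 to 15.7 FPKM. In complex III, Uqcr10 (76.9 to 90.8 FPKM) and Uqcrh (67.2 to 76.0 FPKM) were highest. Uqcrfs1, the Rieske iron-sulphur protein (27.0 to 32.4 FPKM), and Uqcrc1, a core protein (16.2 to 20.4 FPKM), were lowest, and the other core protein Uqcrc2 lay at 30.2 to 35.4 FPKM.

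Complex IV showed a clear choice of isoform. For each pair of forms the widely expressed gene was high and the muscle, testis, lung or hypoxia form was low. Cox8a had a mean of 243 FPKM, while Cox8b, the heart and skeletal muscle form, had 2 reads in all and Cox8c none. Cox6a1 had a mean of 207 FPKM and its muscle partner Cox6a2 0.355 FPKM. Cox7a2 had a mean of 85.2 FPKM and the muscle form Cox7a1 0.405 FPKM. Cox6b1 reached 103 FPKM against 1.85 FPKM for the testis form Cox6b2, and Cox7b reached 55.6 FPKM against 0.166 FPKM for Cox7b2. Cox4i1, outside the name rule, lay at 152 and 141 FPKM in mutant lenses, against 147 and 137 FPKM in controls, and the lung form Cox4i2 between 0.925 and 1.37 FPKM. Ndufa4, now counted as a subunit of complex IV, had a mean of 50.1 FPKM and its hypoxia-linked relative Ndufa4l2 1.55 FPKM.

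In complex V the catalytic beta subunit Atp5b was highest, at 137 and 139 FPKM in mutant lenses, against 137 and 142 FPKM in controls. The alpha subunit Atp5a1 lay between 53.6 and 63.4 FPKM and the gamma subunit Atp5c1 between 36.4 and 42.4 FPKM, an order of beta, alpha and gamma with no overlap between neighbours. Atp5e, the epsilon subunit of the stalk, was second at 64.6 to 75.5 FPKM, with a range that overlapped that of Atp5h (61.8 to 76.9 FPKM). The 3 genes for the identical mature c-subunit of the rotor ranked Atp5g3 (mean 22.2 FPKM), Atp5g2 (17.3 FPKM) and Atp5g1 (7.13 FPKM, the lowest of the class), with no overlap between them. Atp5l, a membrane subunit, was next lowest above Atp5g1 at 12.2 to 14.3 FPKM. The assembly factors of complex I were low, from Ndufaf4 (1.30 to 1.45 FPKM) and Ndufaf2 (1.32 to 2.01 FPKM) to Ndufaf3 (3.52 to 4.93 FPKM), apart from Ndufaf8 at 11.4 to 20.1 FPKM.

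These orders depend on the gene length behind FPKM. The table gives 1 length per gene, and for 39 of the 90 tested members with a GENCODE vM21 coding transcript it was over 2 times the length of the transcript with the longest coding sequence. Ndufb2 was the extreme, at 12.4 times, and Atp5l (11.8 times) and Atp5g1 (8.24 times) followed. On the transcript's length, chosen after the gene lengths had been seen, Ndufb2 moved from 1.20 to 14.8 FPKM and Atp5l from 13.0 to 154 FPKM. The 3 c-subunit genes came close together, at 67.7, 65.6 and 58.7 FPKM for Atp5g3, Atp5g2 and Atp5g1. The ratio of the highest to the lowest member of complex I went from 329 to 59.7, and that of complex V from 19.5 to 6.97, whereas in complex III it went from 4.54 to 8.98. Ndufs1 was then the lowest subunit of complex I, at 6.59 FPKM. Among complex IV genes with reads in every library, Cox7a1 stayed lowest and Cox8a highest on both lengths, and the beta, alpha, gamma order of complex V was kept, at 307, 74.6 and 64.5 FPKM. Comparisons between genotypes within a gene involve its length only through the 0.1 FPKM cutoff for testing and the 0.1 FPKM added before taking logs.

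**Figure D1:**
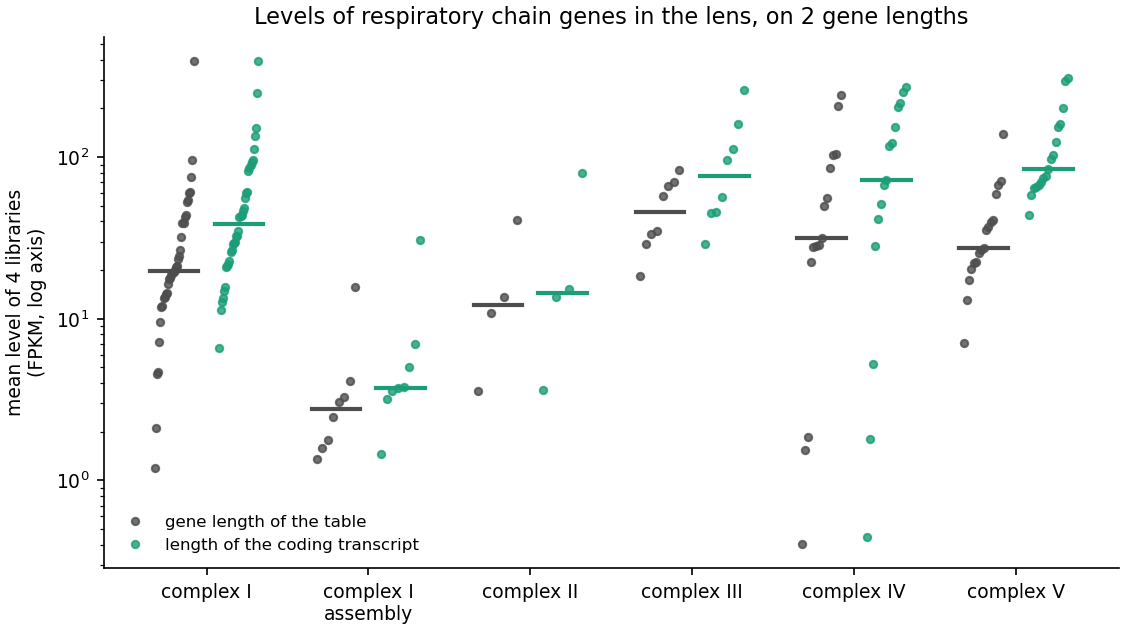
Mean level over the 4 libraries (FPKM, log axis) of each tested member with reads in every library, by complex, on the table's gene length (grey) and on the length of the coding transcript (green); horizontal bars are medians. The green points of complex I run from 6.59 to 394 FPKM and the grey ones from 1.20 to 394 FPKM.

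No member differed between mutant and control lenses past the correction for all genes. None of the 91 tested had an adjusted p under 0.05 with limma on log2(FPKM + 0.1) and Benjamini-Hochberg adjustment over 15997 genes (background 0.0375%), and none did with limma's voom on the recovered reads (background 0.0875%). The smallest adjusted p of a member was 0.681 with the first and 0.289 with the second. At an unadjusted p under 0.05, 3 members were higher in the mutant (background 3.39%) and 3 lower (background 2.92%), shares that are close to those of all genes. The higher ones were Ndufc2, Ndufab1 and Ndufa12, all of complex I, and the lower ones Atp5k, Ndufa4l2 and Cox6a2.

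A small lean towards higher values ran through the set. Of the 91 members, 67 had a fold change above 0, and their median log2 fold change (mutant over control) was 0.11, against 0.004 over all genes tested. Both mutant libraries lay above both controls in 26 members (28.6%, background 18.2%) and below them in 6 (6.59%, background 18.3%). Abundant and short genes leaned the same way. Among the 1495 protein-coding genes with a mean of at least 10 FPKM the median was 0.07 and 29.4% lay above, against 20 of the 71 members (28.2%) in that range, while 13.0% lay below, against 3 of the 71 (4.23%). Among the 336 protein-coding genes under 1000 bases it was 0.11, with 25.9% above and 8.93% below. The shares of the members were thus near those of short genes in both directions, and whether they differ from those of other abundant genes was not tested.

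The lean was carried by 1 library. Mutant replicate 1 had the highest value of the 4 libraries in 60 of the 91 members, mutant replicate 2 in 11, control replicate 1 in 8 and control replicate 2 in 12. The members' median departure from their own mean was 0.15 in mutant replicate 1 and -0.03, -0.06 and -0.05 on the log2 scale in mutant replicate 2, control replicate 1 and control replicate 2. Other abundant genes leaned the same way in this library. Mutant replicate 1 was highest in 64 of 96 cytosolic ribosomal protein genes, with median departures of 0.14, -0.04, -0.05 and -0.03 in the same order of libraries, and in 738 of the 1495 protein-coding genes of at least 10 FPKM, with a departure of 0.07. Against control replicates 1 and 2, mutant replicate 1 gave median differences of 0.21 and 0.18, and mutant replicate 2 gave 0.02 and -0.0002. Without mutant replicate 1 the median log2 fold change was 0.004. Without mutant replicate 2 it was 0.19. Mutant replicate 1 and control replicate 2 lay below the mean Xist level, and mutant replicate 2 and control replicate 1 above it. The part of sex composition in the lean was not tested.

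Mutant replicate 1 also had the largest crystallin share (62.9%), the lowest epithelial marker sum (137 FPKM) and the highest fibre marker sum (167546 FPKM) of the 4 libraries, and their part in its higher member values was not tested. The scaling bears on its size. The deposited values divide by totals that were 0.944 and 1.05 times the reads of mutant replicates 1 and 2, and 1.05 and 0.987 times those of control replicates 1 and 2. When FPKM was put on each library's own total of reads, the members' departures were 0.05, 0.03, -0.01 and -0.07 in the same order, and those of all genes tested were -0.08, 0.06, 0.05 and -0.02. The members' median log2 fold change was then 0.08, and it was 0.07 with libraries set to an equal sum of non-crystallin genes.

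**Figure D2:**
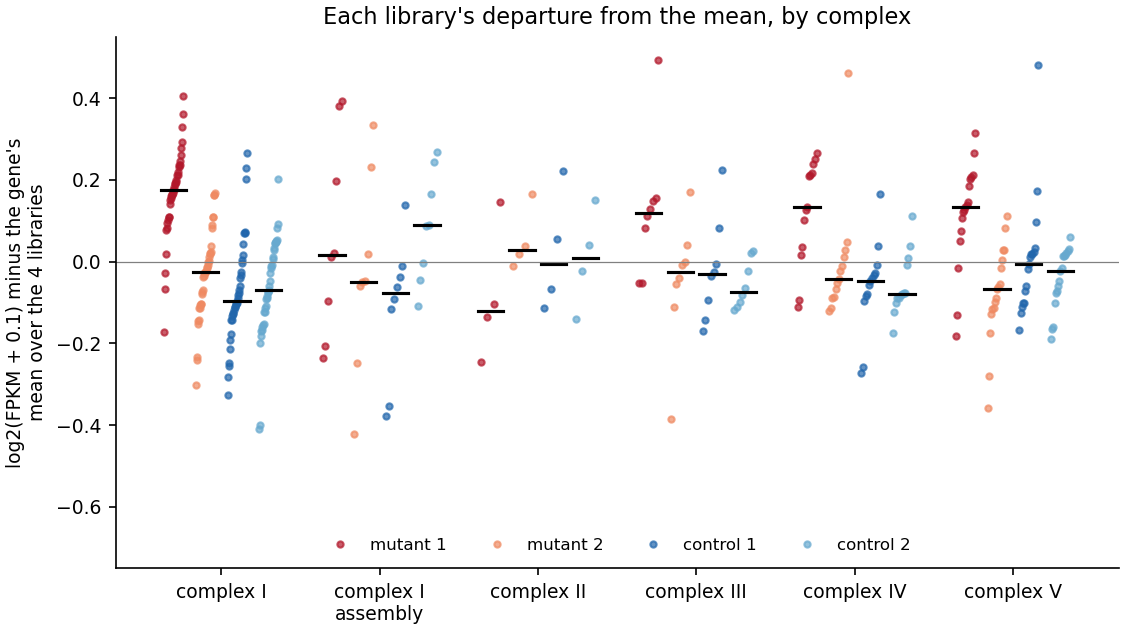
Departure of each library from the gene's own mean over the 4 libraries, as log2(FPKM + 0.1), for tested members by complex, with medians as black bars; Cox6a2, Cox7a1, Cox7b2 and Ndufa4l2 are left out for their few reads. The median of mutant 1 lies above 0 in complexes I, III, IV and V, where those of the other 3 libraries lie below it.

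Complex I, the largest class, had a median log2 fold change of 0.16, and 31 of its 37 tested members had a fold change above 0. In 14 (37.8%) both mutant libraries lay above both controls and in 0 below, against 18.2% and 18.3% of all genes tested and 29.4% and 13.0% of abundant protein-coding genes. Whether complex I differs from these was not tested. Their summed FPKM was 1531 and 1302 in mutant replicates 1 and 2 and 1396 and 1277 in control replicates 1 and 2, so the groups overlapped (1416 ± 162 against 1336 ± 84.3, SD, n = 2 each). Ndufc2, a small subunit of the membrane arm, had 50.1 and 49.0 FPKM in mutant lenses, against 36.8 and 40.5 FPKM in controls. Its log2 fold change was 0.36 ± 0.09 (SE, limma adjusted p = 0.681), and the groups did not overlap. Leaving out each library in turn gave between 0.29 and 0.43.

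Ndufab1, the mitochondrial acyl carrier protein that is also a subunit of complex I, had 5.87 and 4.93 FPKM in mutant lenses, against 3.88 and 4.16 FPKM in controls. The mutant libraries lay above both controls, with a log2 fold change of 0.41 ± 0.13 (SE, limma adjusted p = 0.749). Ndufa12, an accessory subunit, had 5.79 and 4.79 FPKM in mutant lenses, against 4.36 and 3.35 FPKM in controls, from 97 to 162 reads. Its log2 fold change was 0.45 ± 0.18 (SE, limma adjusted p = 0.788), and without control replicate 2 it was 0.27. The other 11 separated genes had log2 fold changes between 0.16 (Ndufv2) and 0.26 (Ndufb2). Of the core subunits, Ndufs3 and Ndufv2 were among these, and Ndufs1 and Ndufv1 both had fold changes of -0.05 on the log2 scale, with overlapping groups. Over the 8 assembly factors the median was -0.03, with Ndufaf6 above (4.22 and 3.27 against 2.50 and 3.12 FPKM) and Ndufaf3 below (3.52 and 3.94 against 4.05 and 4.93 FPKM).

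In complex II, 1 of the 4 genes lay above both controls (background 18.2%) and 1 below (background 18.3%). Sdhb had a log2 fold change of 0.14 ± 0.10 (SE, limma adjusted p = 0.811), and Sdha, with 9.80 and 11.1 FPKM in mutant lenses, against 11.2 and 11.1 FPKM in controls, one of -0.10 ± 0.10 (SE, limma adjusted p = 0.848). For Sdha the gap between the nearest mutant and control libraries was far smaller than that between the mutant libraries. The summed FPKM of the complex was 69.7 and 70.4 against 68.1 and 67.5, and it alone did not overlap, but with libraries set to an equal non-crystallin sum the means came to 69.1 and 68.8. In complex III, 2 of 8 genes lay above (background 18.2%) and 0 below (background 18.3%). Whether complexes II and III differ from the background was not tested. Uqcrq had 63.4 and 57.2 FPKM against 55.8 and 53.0 FPKM, and Uqcrc2 had 35.4 and 34.4 FPKM against 30.2 and 33.9 FPKM. Uqcrb, singled out after its values had been seen, differed widely within the mutant group, with 747 and 446 reads in mutant replicates 1 and 2 and 568 and 518 in the controls.

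In complex IV, 4 of the 17 tested genes lay above both controls (23.5%) and 3 below (17.6%), shares close to the 18.2% and 18.3% of all genes, and the median log2 fold change was 0.13. Above were Cox5b (29.8 and 28.4 FPKM against 27.0 and 26.1), Cox6b1 (119 and 98.5 FPKM against 96.3 and 96.6), Cox6a1 (226 and 203 FPKM against 202 and 195) and Cox7a2 (86.2 and 88.1 FPKM against 81.8 and 84.6), with log2 fold changes between 0.07 and 0.16. The lower genes included both minor forms with a small unadjusted p. Ndufa4l2, which replaces Ndufa4 under low oxygen, had 1.43 and 0.70 FPKM in mutant lenses, against 2.02 and 2.03 FPKM in controls, from 28, 15, 43 and 41 reads. Its log2 fold change was -0.94 ± 0.32 (SE, limma adjusted p = 0.769), and without mutant replicate 2 it was -0.47. Cox6a2 had 0 and 1 read in mutant lenses, against 3 and 14 reads in controls, so that 1 control library held most of the reads. Its fitted log2 fold change of -2.25 ± 0.75 (SE, limma adjusted p = 0.769) depends on the pseudocount. The striated muscle markers, near the floor, summed to 0.285 and 0.123 FPKM in mutant lenses, against 0.228 and 0.109 FPKM in controls. Among them Tnnt3 had a value only in control replicate 2, at 0.034 FPKM. The part of muscle in the Cox6a2 reads was not tested. Cox7a2l, a supercomplex factor, had 29.6 and 31.3 FPKM against 31.4 and 34.1 FPKM. Its sum with a processed copy, given below, overlapped between the groups.

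In complex V, 4 of 17 tested genes lay above (23.5%, background 18.2%) and 1 below (5.88%, background 18.3%), with a median of 0.08. Atp5k, the small e-subunit that helps ATP synthase form dimers, was the member with the smallest adjusted p under voom (0.289). It had 22.8 and 20.1 FPKM in mutant lenses, against 36.1 and 26.9 FPKM in controls, from 250, 243, 433 and 306 reads. The mutant libraries lay together and the controls apart, and the log2 fold change was -0.54 ± 0.16 (SE, limma adjusted p = 0.736), or -0.33 without control replicate 1. Atp5g1 had 8.52 and 7.22 FPKM in mutant lenses, against 6.47 and 6.30 FPKM in controls, a log2 fold change of 0.29 ± 0.12 (SE, limma adjusted p = 0.805), or 0.17 without mutant replicate 1. Atp5g3 had 0.16 and Atp5g2 0.004 on the same scale, and whether the 3 c-subunit genes differed from each other was not tested. Atp5pb, a stator subunit, had 29.9 and 27.9 FPKM against 24.4 and 27.7 FPKM. The core genes Atp5b, Atp5a1 and Atp5c1 had log2 fold changes of -0.01, -0.02 and 0.09 with overlapping groups.

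**Figure D3:**
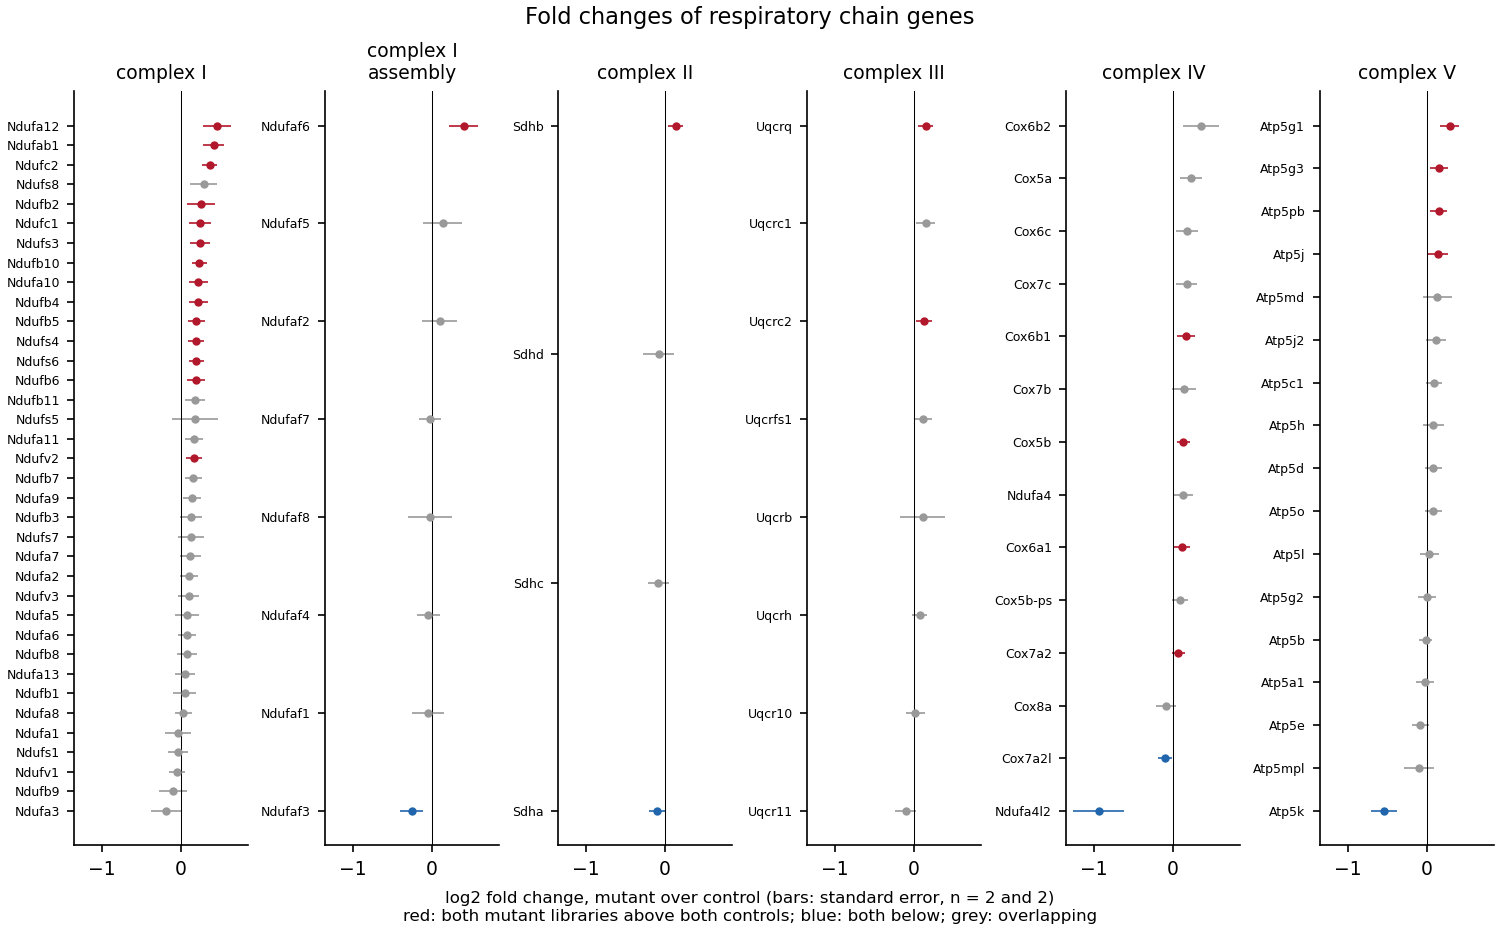
Log2 fold change, mutant over control, of tested members by complex, with standard errors (2 libraries a group); red genes have both mutant libraries above both controls, blue genes both below, and grey genes overlap. Cox6a2, Cox7a1 and Cox7b2 are left out for their few reads and 1 complex I gene is not shown, and of the genes shown only Ndufa4l2 and Atp5k lie below -0.5.

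Many of the members share sequence with other genes, among them processed copies elsewhere in the genome, and reads can be split between them. Of 94 members with transcripts in GENCODE vM21, 28 shared no word of 31 bases with another gene, while 20 shared over 25% of their words. Some of the 20 shared words with genes that are not processed copies, such as Uqcrc2 with the protein-coding Pdzd9 and Ndufb6 with Smim27. Both entries of Atp5o are among the 20. Atp5l, a subunit with many processed copies, shared 85.4%. Cox5b-ps shared 74.4% of its words with Cox5b. It had 213 and 208 reads in mutant lenses, against 199 and 203 in controls. Cox5b itself had 843 and 881 reads, against 833 and 764. With so much shared sequence, no level of its own can be read from Cox5b-ps. Ndufa12-ps on chromosome 5 had 234 and 217 reads in mutant lenses, against 221 and 211 in controls, more than Ndufa12. The sum of the 2, scaled as the FPKM, gave a log2 ratio of 0.22, against 0.45 for Ndufa12 alone. Cox7a2l shared 21.4% of its words with the processed pseudogene Gm6969. That copy had 446 and 434 reads in mutant lenses, against 443 and 310 in controls. Their scaled sum was 1293 and 1288 in mutant lenses, against 1301 and 1265 in controls, so the groups overlapped. Its log2 ratio was 0.009, against -0.10 for Cox7a2l alone.

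Ndufs5, a subunit of the intermembrane face of complex I, was singled out after its values had been seen. It moved with the replicate number, with 1074 reads in mutant replicate 1 and 1037 in control replicate 1 but 757 in mutant replicate 2 and 635 in control replicate 2. In FPKM it had 70.0 and 45.0 in mutant lenses, against 62.0 and 40.1 in controls, so the groups overlapped. The labels do not pair libraries by number. Its processed copy Ndufs5-ps ran the other way, with 152 and 178 reads in replicates 1 and 287 and 359 in replicates 2. Ndufs5 (ENSMUSG00000028648) lies on chromosome 4, minus strand, 123606503 to 123611995, and Ndufs5-ps (ENSMUSG00000081824) on chromosome 16, plus strand, 42775994 to 42776312, in the mm39 positions of the table. The coding sequences of the reference differ at 2 of 318 positions, T81C and A105G, counted from 1 at the A of the start codon with the base of Ndufs5 first, which leaves identical runs of up to 213 bases. Coding positions 1 to 120 of both genes, from GENCODE vM21, show how little sets them apart (capitals mark the differing bases).
Ndufs5: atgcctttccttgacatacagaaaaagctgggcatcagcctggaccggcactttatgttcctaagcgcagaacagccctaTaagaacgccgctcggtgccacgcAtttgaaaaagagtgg
Ndufs5-ps: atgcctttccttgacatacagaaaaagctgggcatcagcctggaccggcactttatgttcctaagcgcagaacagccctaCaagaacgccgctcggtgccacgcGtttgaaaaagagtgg
Ndufs5 took 87.6% and 72.5% of the pair's reads in mutant replicates 1 and 2, and 85.3% and 63.9% in control replicates 1 and 2. The pair's sum, scaled as the FPKM, was 1293 and 1003 in mutant replicates 1 and 2, and 1175 and 1014 in control replicates 1 and 2. It was thus still higher in the replicates numbered 1 in both genotypes. The pair's sum gave a log2 ratio of 0.07 between mutant and control, against 0.17 ± 0.29 (SE) for Ndufs5 alone.

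**Figure D4:**
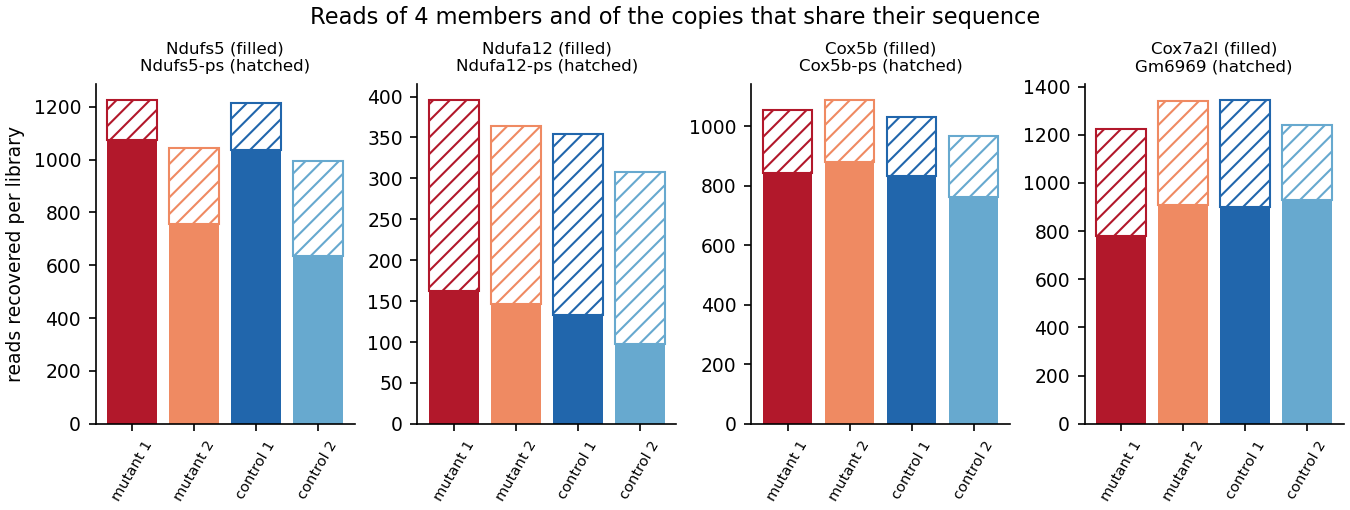
Reads recovered per library for 4 members (filled) and a gene that shares much of their sequence (hatched, stacked on top). The hatched part of Ndufs5-ps is larger in both replicates numbered 2, at 287 and 359 reads, than in those numbered 1, at 152 and 178 reads, in both genotypes.

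Nuclear respiratory chain genes are known for promoters that bind NRF1, the ETS factor GABP and YY1, the factors through which the coactivator PGC-1alpha acts on them. RefSeq windows of 300 bases (250 before to 50 after the start, GRCm38.p6) were matched for 77 of 94 distinct genes, in 82 windows. Searched on both strands, GCGCANGCG for NRF1 was found in 28.0% of the members' windows against 6.25% of 32851 windows of all genes. CCGGAAG for the ETS family was found in 23.2% against 8.86%, and AAGATGGCG for YY1 in 9.76% against 1.40%. Of the 82 windows, 41 held at least 1 of the 3, against 14.8% of all windows and 19.6% of protein-coding ones. The members' windows were richer in G and C, at a median of 58.5% against 52.7%. The first motif can match both strands at overlapping positions, and it can begin within the last bases of a YY1 match.

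Stretches of 5 promoters, all on the minus strand, show how these motifs sit near the start sites, with the matches in capitals. The genes, chosen after their values had been seen, were Cox6a1, the second most abundant gene of complex IV, Ndufb10 and Ndufb4, which lay above both controls, Atp5j, which holds an ETS and a YY1 motif, and Atp5k, the lower gene of complex V. They lie at chr5:115348948-115349140, chr17:24724398-24724445, chr16:37654362-37654579, chr16:84835011-84835084 and chr5:108434374-108434469.
Cox6a1: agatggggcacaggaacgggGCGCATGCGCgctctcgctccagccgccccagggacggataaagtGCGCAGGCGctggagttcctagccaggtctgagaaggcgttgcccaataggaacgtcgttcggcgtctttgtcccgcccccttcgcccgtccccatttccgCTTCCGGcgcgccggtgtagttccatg
Ndufb10: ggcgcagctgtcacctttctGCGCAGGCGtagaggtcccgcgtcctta
Ndufb4: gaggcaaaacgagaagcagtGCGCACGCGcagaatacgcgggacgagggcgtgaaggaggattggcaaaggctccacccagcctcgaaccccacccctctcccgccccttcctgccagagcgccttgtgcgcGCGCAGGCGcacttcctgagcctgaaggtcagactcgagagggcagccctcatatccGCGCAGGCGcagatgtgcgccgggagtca
Atp5j: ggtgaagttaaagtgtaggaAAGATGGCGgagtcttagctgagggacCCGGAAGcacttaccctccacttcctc
Atp5k: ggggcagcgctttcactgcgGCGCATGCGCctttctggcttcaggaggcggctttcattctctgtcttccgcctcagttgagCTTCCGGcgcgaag
In Ndufb4 the NRF1 motif stood at 3 places, from -191, -79 and -22 bases of the start. Atp5k held it from -50 bases, with an ETS motif from 13 bases after the start. The 22 tested genes with the NRF1 motif gave a median of 0.09 for the log2 fold change, with 5 above both controls and 2 below. The 19 with the ETS motif had 0.09 (6 above, 1 below), the 8 with the YY1 motif 0.14 (4 above, 0 below), and the 36 with none of them 0.12 (11 above, 2 below). Over all tested members 28.6% lay above and 6.59% below, and over all genes tested 18.2% and 18.3%.

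Of the genes that control this programme, none of 13 tested had an unadjusted p under 0.05, and their median log2 fold change was -0.01, with 2 above both controls (15.4%, background 18.2%) and 5 below (38.5%, background 18.3%). Tfam, which packs and transcribes mitochondrial DNA, had 2.11 and 2.15 FPKM in mutant lenses, against 2.43 and 2.79 FPKM in controls. Its log2 fold change was -0.28 ± 0.13 (SE, limma adjusted p = 0.811). Polrmt, the mitochondrial RNA polymerase, had 1.45 and 1.38 FPKM against 1.71 and 1.63 FPKM. Gabpa, the DNA-binding subunit of GABP, lay the other way, at 4.41 and 4.35 FPKM in mutant lenses, against 3.64 and 4.02 FPKM in controls. Gabpa and Atp5j overlap on opposite strands of chromosome 16 and share 10.9% of the words of Atp5j, so reads from their common end cannot be told apart without strand. Ppargc1b, a PGC-1 coactivator, rested on 9 to 12 reads per library.

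The assembly factors outside the name rule showed no lean, with a median of 0.02 over 36 tested genes, 7 above (19.4%) and 6 below (16.7%), close to the shares of all genes. Cox11, which inserts copper into cytochrome oxidase, was the 1 gene with an unadjusted p under 0.05, at 1.14 and 1.47 FPKM in mutant lenses, against 1.84 and 2.06 FPKM in controls (log2 fold change -0.55 ± 0.18 SE, limma adjusted p = 0.749). Coa5 was also lower, at 15.7 and 15.3 against 17.4 and 17.5 FPKM. Cox20 (1.91 and 1.21 against 1.05 and 0.983 FPKM) and Atpaf1 (1.08 and 1.07 against 0.876 and 0.777 FPKM) were higher. Of the 5 subunits outside the rule only the electron carrier Cycs was separated, at 7.96 and 7.37 FPKM against 6.86 and 6.42 FPKM. The median of the 5 was -0.0002.

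Over 17 genes of import, chaperones and carriers the median log2 fold change was 0.05, with 4 above (23.5%, background 18.2%) and 1 below (5.88%, background 18.3%). Tomm22 at 0.28 and Vdac3 at 0.28 had the smallest p of those above, and Timm44 was the lower one. Over 13 genes of the tricarboxylic acid cycle the median was 0.05, with Idh3b above and Ogdh below (7.69% each). The 13 protein genes of the mitochondrial genome had a median of 0.21, and 12 had a fold change above 0. Mutant replicate 1 was the highest library in 9 of them. Mutant replicate 2 lay above control replicate 1 in 12 but above control replicate 2 in only 4, with median differences of 0.16 and -0.03. All genes of that genome together took 0.960% and 0.900% of reads in mutant replicates 1 and 2 and 0.812% and 0.863% in control replicates 1 and 2. Of the 13, 3 lay above both controls (23.1%, background 18.2%) and mt-Nd3 below (7.69%, background 18.3%). For mt-Atp6 the values were 16.0 and 13.2 FPKM against 9.51 and 11.4 FPKM (log2 fold change 0.48 ± 0.15 SE, limma adjusted p = 0.736). The listed values within this genome ran from 0.665 FPKM for mt-Atp8 to 1991 FPKM for mt-Co1. How reads over neighbouring short genes were assigned was not tested, so no order of levels is read from them. Cytosolic ribosomal protein genes, another set of short abundant genes, had a median of 0.08 (24 of 96 above and 6, or 6.25%, below), and proteasome subunits 0.17 (22 of 36 above, or 61.1%, and 1 below).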

How the data were processed

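Whole lenses were measured by polyA RNA-seq in 2 mutant and 2 control libraries. Per the study's methods, reads were aligned with HISAT2 and counted per gene with featureCounts, and mm39 is the build in the submitters' processing notes. The authors deposited FPKM, with 1 column per library and the gene length, and 0 columns were left unused. Multiplied by length, 100% of values came out as whole reads (within 0.01), at 18561682 to 18878768 reads per library. Intervals of counting error leave out the spread between pools.

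Values were tested as log2(FPKM + 0.1) with limma 3.58.1 (lmFit, eBayes with trend) in R 4.3.3, over genes with a mean of at least 0.1 FPKM, with Benjamini-Hochberg adjustment. A fold change on this scale understates that of low genes. The libraries shared 1 median ratio to the average library, so no rescaling was applied. The fit on the FPKM as deposited, counted among the alternatives, was thus the same as the main one. The script was tested on simulated data. Alternatives were pseudocounts of 1 and 0.01, a filter at 1 FPKM and none, no trend, voom on the recovered reads, equal non-crystallin sums, protein-coding genes only, a replicate block, the sex composition of the pools, and each library left out. Equal total reads and coding-transcript lengths were added after the data had been seen.

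Genes were named by a rule: in each class the 3 separated members with the smallest p in each direction (2 in each pathway list), the 2 highest and 2 lowest in level, core subunits and isoform pairs. 1 gene that the rule names is not reported here. Members, lists (outside subunits, assembly factors, regulators, other mitochondrial proteins, tricarboxylic acid cycle, mitochondrial genome, ribosomal and proteasome genes, and cell type markers) and motifs were chosen with earlier results of these data known. Replicates are pools of mice.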

Additional observations from a re-analysis of the deposited data

How the results depend on the processing

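No member reached an adjusted p under 0.05 in any of the 16 alternatives, and none of the 36 genes chosen by the naming rule for non-overlapping groups changed sign in 573 alternative values, which that choice largely fixes. Some of the 16 leave fold changes unchanged by construction. These are the FPKM as deposited, no trend, the replicate block, the sex covariate and protein-coding genes only, all with the main median of 0.11. Of the 59 tested members whose groups overlapped, 44 changed sign when 1 library was left out (Ndufa1 ranged from -0.22 to 0.14, Ndufa3 from -0.40 to 0.01, Ndufs5 from -0.15 to 0.49 and Atp5a1 from -0.14 to 0.10). Of the 32 whose groups did not overlap, 29 moved by over 1.5 times, Ndufc2, Ndufab1 and Cox5b being the exceptions. The count of members at an unadjusted p under 0.05 (3 higher, 3 lower) was 0 and 0 without the mean-variance trend. The higher count was 5 with sex composition as a covariate and 5 among protein-coding genes only. Leaving out 1 library at a time gave 0 to 18 members higher and 1 to 2 lower at that level, 33 to 64 members above both controls, 12 to 29 below, and a median log2 fold change of 0.0042 to 0.19. The lowest of these medians came without mutant replicate 1 and the highest without mutant replicate 2. The lone library of a group is then assumed to vary like the others. Without the assembly factors the median was 0.12.

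The replicate numbers do not pair the libraries by label, and same-numbered deviations correlated at -0.0051 over all 15997 genes and at 0.42 over the 91 members. With a replicate block, 3 members were higher and 3 lower at an unadjusted p under 0.05, and 3 genes of all passed the adjusted threshold against 6 without it. The median stayed at 0.11, which a block balanced over the groups cannot change. Across all genes, 14 passed with voom, 5 with equal total reads, 2 with either other pseudocount, with the filter at 1 FPKM, without the trend or among protein-coding genes only, 1 without a filter or with the sex covariate, and 0 with any library left out. With 2 pools a group, small differences were not detectable.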
